A study of Mus musculus with 12 samples.

Results

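The myeloid C-type lectin receptors described here are 9 genes, Clec4a1, Clec4a2, Clec4a3, Clec4d, Clec4e, Clec4n, Clec5a, Clec7a and Clec12a. They were chosen by name for their receptor type, with earlier results of these data known. All 9 were found among the 24465 gene identifiers listed in either of the deposited tables, and all 9 passed the filter on low values in every comparison. Total RNA was sequenced from bone marrow-derived macrophages, macrophages that are grown from marrow in a dish. One genotype was Lyz2cre, in which the promoter of the myeloid gene Lyz2 drives Cre recombinase, and the other was Klf6fl/fl:Lyz2cre, in which the same Cre meets loxP-flanked alleles of Klf6, a zinc finger transcription factor gene. Lyz2cre was therefore shared by all groups, and cells without Cre were not analysed here. Both genotypes were studied without treatment and after 10 ng/ml TNF, an inflammatory cytokine, for 6 h, which gave 4 groups of 3 libraries. The Klf6fl/fl:Lyz2cre cells are called Klf6-deleted below. The labels do not state whether libraries of the same group are separate mice or cultures, so p-values cover only the spread seen among libraries, which may be technical.

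C-type lectin receptors of myeloid cells sense sugars and lipids of microbes and of damaged cells. The activating receptors signal through an ITAM, a tyrosine motif that recruits the kinase Syk. Clec4e (Mincle), Clec4d (MCL) and Clec4n (Dectin-2) borrow this motif from the adaptor Fcer1g, Clec5a (MDL-1) borrows it from the adaptor Tyrobp (DAP12), and Clec7a (Dectin-1) carries a single-tyrosine form of it in its own tail. Clec4a2 (DCIR) and Clec12a (MICL) carry instead an inhibitory motif, an ITIM, that recruits phosphatases such as the product of Ptpn6, and Clec4a1 and Clec4a3 are close relatives of Clec4a2.

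All 9 genes lie on mouse chromosome 6 (GRCm38, GENCODE vM21). Clec4a1 (122921848 to 122934619, plus strand), Clec4a3 (122952515 to 122969875, plus), Clec4a2 (123106428 to 123143999, plus), Clec4n (123229843 to 123247021, plus), Clec4d (123262111 to 123275265, plus) and Clec4e (123281789 to 123289870, minus) belong to a 9-gene cluster of 368 kb. Clec4d and Clec4e are neighbours on opposite strands whose 3′ ends face each other across 6523 bases. Clec12a (129342691 to 129365303, plus) and Clec7a (129461591 to 129472779, minus) lie farther along the chromosome with 96287 bases between them, and Clec5a (40574894 to 40585821, minus) lies apart from both clusters.

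Of the genes, 4 stood higher with TNF than without it in Lyz2cre cells, with values given below, and the 250 bases before their start sites are shown because these promoters belong to the genes with that shared pattern. They are RefSeq sequences on the build GRCm38.p6, written 5′ to 3′ on the gene's strand, at chr6:123289872-123290121 (minus), chr6:40585806-40586055 (minus), chr6:123261857-123262106 (plus) and chr6:129349994-129350243 (plus). The Clec12a window precedes a RefSeq start that lies inside the span of the GENCODE gene given above, and so does that of Clec4a2, which is not printed. Capitals mark GAGGAA or its reverse complement TTCCTC, the core bound by ETS factors such as PU.1, the master regulator of myeloid genes.
Clec4e: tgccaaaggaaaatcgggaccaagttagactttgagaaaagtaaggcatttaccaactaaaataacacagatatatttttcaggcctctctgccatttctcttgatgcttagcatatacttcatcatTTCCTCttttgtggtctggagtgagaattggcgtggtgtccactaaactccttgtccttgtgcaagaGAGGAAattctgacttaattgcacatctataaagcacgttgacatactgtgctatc
Clec5a: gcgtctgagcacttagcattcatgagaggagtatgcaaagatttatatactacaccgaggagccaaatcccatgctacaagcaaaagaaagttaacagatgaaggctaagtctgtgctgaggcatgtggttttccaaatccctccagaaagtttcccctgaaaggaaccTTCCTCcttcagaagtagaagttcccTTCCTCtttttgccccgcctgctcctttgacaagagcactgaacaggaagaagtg
Clec4d: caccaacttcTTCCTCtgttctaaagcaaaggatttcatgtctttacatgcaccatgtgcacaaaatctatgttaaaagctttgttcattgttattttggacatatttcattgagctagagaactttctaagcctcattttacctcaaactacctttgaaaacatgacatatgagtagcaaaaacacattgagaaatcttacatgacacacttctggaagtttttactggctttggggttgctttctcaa
Clec12a: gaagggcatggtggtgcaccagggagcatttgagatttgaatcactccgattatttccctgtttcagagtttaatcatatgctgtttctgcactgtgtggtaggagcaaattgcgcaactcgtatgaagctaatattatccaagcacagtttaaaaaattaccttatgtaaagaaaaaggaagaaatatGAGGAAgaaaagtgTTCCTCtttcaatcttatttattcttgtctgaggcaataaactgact

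A promoter sequence was present for 8 of the 9 genes, all but Clec4n. GAGGAA was found on either strand in 7 of these 8, all but Clec4a2, and in 25.9% of the 27025 genes with such a window. The letters TTNNGNAA, the spaced pair of sites read by C/EBP factors, were found in 5 of the 8, in Clec4a2 and the 4 printed promoters, and in 40.3% of all genes. TGANTCA, read by AP-1, was found in Clec12a alone and in 7.82% of all genes. The kappaB consensus (4.46% of genes) and the CACCC-type letters CCNCNCCC (48.5% of genes), of the kind read by KLF factors, were found in 0 of the 8. Both strands were read, and the motifs may overlap one another. A match is a match of letters, not a measured site, and a missing match says only that the letters are not in these 250 bases.

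Klf6 itself was lower in the Klf6-deleted libraries of both conditions. Without TNF it stood at 10055, 9984 and 10315 normalized counts in Lyz2cre and at 7004, 7405 and 6894 in Klf6-deleted cells. The log2 difference was -0.51 ± 0.0359 (SE; adjusted p = 7.1e-10, limma). With TNF it stood at 7622, 7155 and 7564 against 4211, 4133 and 4139.9 (log2 difference -0.84 ± 0.0417, adjusted p = 4.3e-11, limma). All 6 Klf6-deleted libraries were thus below the Lyz2cre libraries of the same condition, with a sizeable remainder; these are reads over the whole gene and include exons outside any deleted part.

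The 12 libraries held 16.9 to 23.4 M reads. The 9 macrophage markers, among them Adgre1 and Csf1r, were all present, with summed levels of 11853 to 11877 CPM (a gene's reads scaled to the library's total) in untreated Lyz2cre, 7316 to 7754 in untreated Klf6-deleted, 10353 to 10485 in TNF-treated Lyz2cre and 9806 to 9846 in TNF-treated Klf6-deleted libraries. Markers of other cell types moved with genotype. In the same order of groups, 12 stromal markers summed to 118 to 139, 2631 to 2785, 24.3 to 36.3 and 180 to 201 CPM, 10 monocyte markers to 801 to 857, 1253 to 1381, 187 to 207 and 402 to 440 CPM, and 10 dendritic cell markers to 184 to 191, 200.1 to 208, 562 to 715 and 209.6 to 248 CPM. Bst2, an interferon-induced gene, gave most of the dendritic sum, with means of 154, 185, 607 and 216 CPM. Cd209a was listed at 0 in untreated Lyz2cre and Batf3 in TNF-treated Lyz2cre cells, and Siglech and Cd209a are not listed in the TNF table. The 14 neutrophil and progenitor markers summed to 657 to 712, 575 to 598, 89.5 to 92.7 and 138 to 157 CPM, and Ly6g, Retnlg and Cxcr2 are not listed in the TNF table. The 7 B and T cell markers summed to 10.4 to 13 CPM in untreated Lyz2cre libraries and to less in all others. In RNA from a whole culture, fewer cells of a type and less RNA per cell cannot be told apart, and the part of these markers in the receptor results was not tested.

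TNF-treated cells had a different receptor profile from untreated cells in both genotypes. The deposited tables of the untreated and TNF-treated libraries were normalized separately, so levels are set side by side here in CPM, as a description with no test. In Lyz2cre cells Clec4e stood 154-fold higher with TNF, Clec5a 34.9-fold, Clec4d 2.45-fold and Clec12a 1.41-fold, while the other 5 genes stood lower: Clec4n 8.82-fold, Clec4a3 5.40-fold, Clec4a2 4.58-fold, Clec7a 3.47-fold and Clec4a1 2.54-fold. The median ratio over 10714 genes was 0.846. In these cells the receptors therefore divided into 4 that were higher and 5 that were lower with TNF. The ranges of the 3 untreated and 3 treated libraries did not overlap for any of the 9. The share of all genes without such overlap was not computed, so this cannot be read as particular to the receptors.

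**Figure D1:**
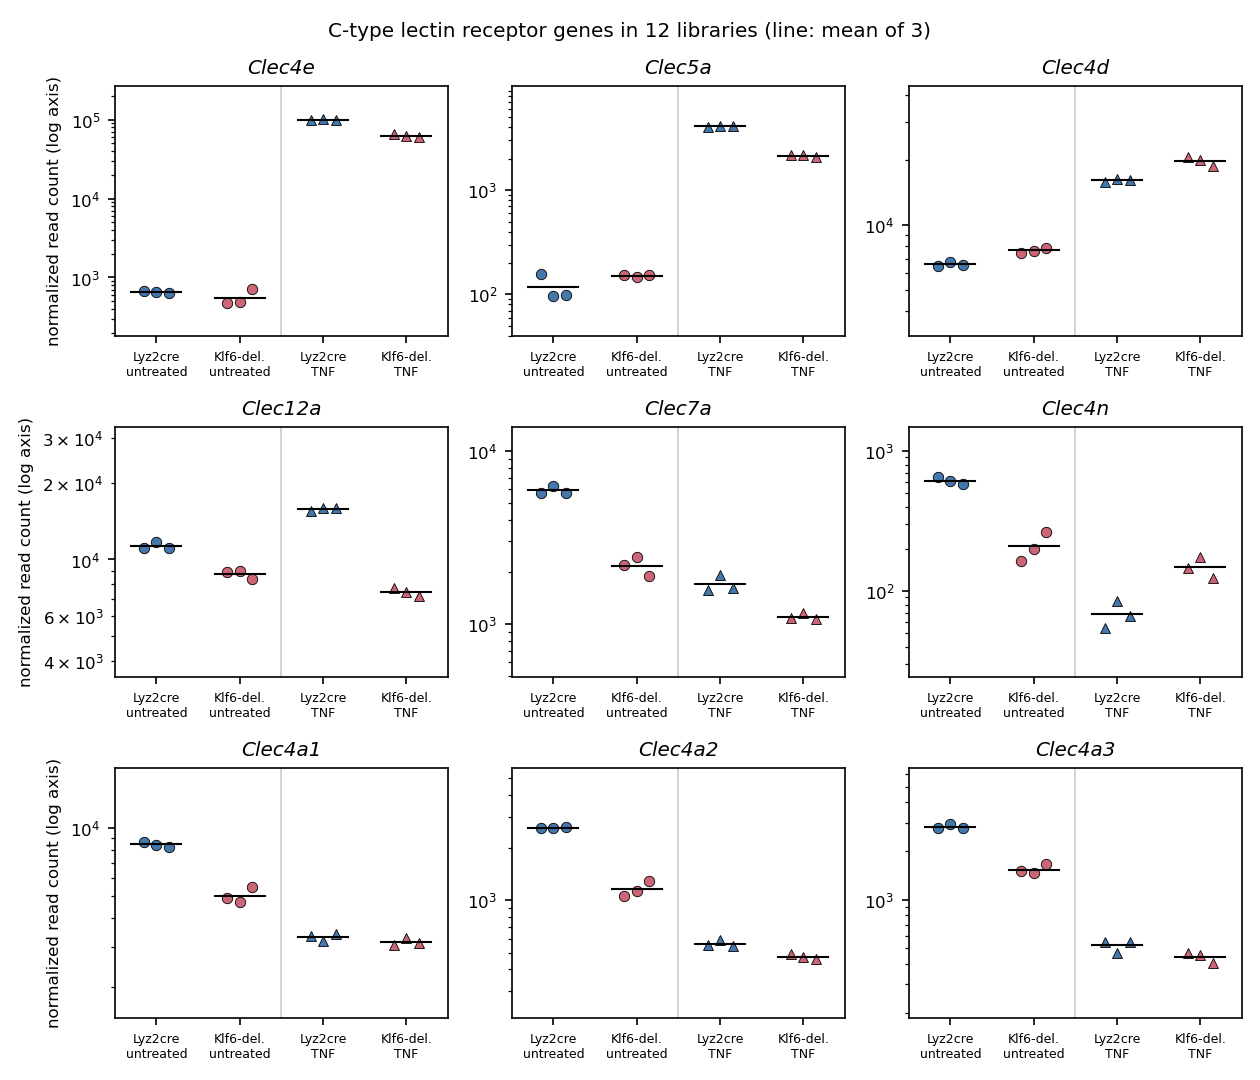
Normalized counts of the 9 receptor genes in each of the 12 libraries, on a log axis, with points for single libraries and horizontal lines for group means; the untreated and TNF-treated values come from separately normalized tables. Clec4e is near 652 in untreated and near 99546 in TNF-treated Lyz2cre cells, the widest span of the 9.

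Clec4e, the receptor for mycobacterial cord factor, showed the greatest span. Its level was 31.4 ± 1.02 CPM (SD, n = 3) in untreated and 4826 ± 180.0 CPM in TNF-treated Lyz2cre cells, and 29.3 ± 6.81 and 3789.8 ± 189 CPM in Klf6-deleted cells. Ranked by the TNF ratio, Clec4e was the 6th of 10714 genes in Lyz2cre cells and the 1st of 11601 in Klf6-deleted cells, where its ratio was 129. Ranked by CPM without regard to length, it moved from place 5441 to place 14 in Lyz2cre cells and from 5961 to 17 in Klf6-deleted cells. A single gene thus came to supply 0.483 ± 0.0180% of all reads in TNF-treated Lyz2cre libraries and 0.379 ± 0.0189% in TNF-treated Klf6-deleted libraries.

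The 9 genes together took 0.188 ± 0.00346% of reads in untreated Lyz2cre, 0.144 ± 0.00233% in untreated Klf6-deleted, 0.687 ± 0.0231% in TNF-treated Lyz2cre and 0.590 ± 0.0267% in TNF-treated Klf6-deleted libraries. Clec4e made up 1.67%, 2.04%, 70.3% and 64.2% of those reads in the same order. Clec12a, which supplied 28.8% and 32.2% of them without TNF, supplied 11.1% and 7.68% with TNF.

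The TNF ratios differed in size between the genotypes. In Klf6-deleted cells, Clec5a stood 16.4-fold higher with TNF and Clec4d 2.98-fold higher, Clec4a3 stood 3.02-fold lower, Clec4a2 2.13-fold, Clec7a 1.71-fold and Clec4a1 1.38-fold. Clec12a had a ratio of 0.981 and Clec4n stood 1.23-fold lower, and for these 2 genes the ranges of untreated and treated Klf6-deleted libraries overlapped. The median ratio over 11601 genes in these cells was 0.968. The test of the difference between genotypes is given after the comparisons within each condition.

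**Figure D2:**
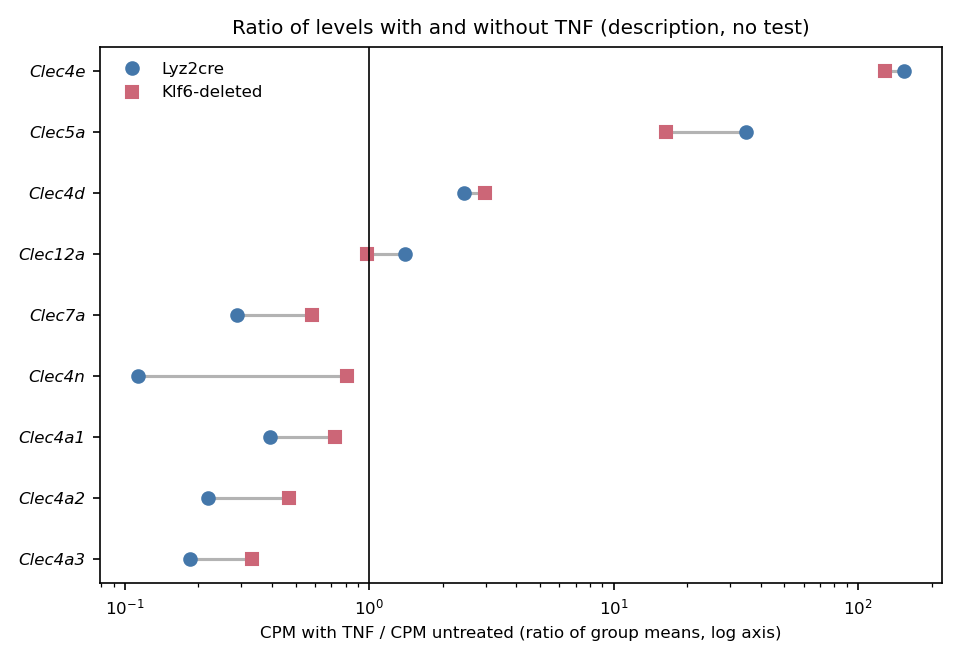
Ratio of the mean CPM with TNF to the mean CPM without it for each of the 9 genes, on a log axis, in Lyz2cre and Klf6-deleted cells, with no test. Clec4e is highest in both genotypes (154 and 129), and Clec4n moves from a ratio far below 1 in Lyz2cre cells to one near 1 in Klf6-deleted cells.

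The first comparison asks how the receptors of resting macrophages differ between genotypes. Without TNF, 6 of the 9 receptors were lower in Klf6-deleted cells, 1 was higher and 2 did not pass the test. Of the 12715 genes tested, 56.9% passed, 29.3% lower and 27.6% higher (limma, adjusted p below 0.05). The 6 lower genes were Clec4n, Clec7a, Clec4a2, Clec4a3, Clec4a1 and Clec12a, and the higher one was Clec4d. The median log2 difference was -0.75 over the 9 genes and -0.01 over all genes tested. The groups did not overlap for 7 of the 9 genes, against 62.3% of all genes tested.

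Among the activating receptors, Clec4n, which binds fungal mannans, stood at 655, 607 and 578 normalized counts in Lyz2cre and at 165, 199 and 265 in Klf6-deleted cells. The lowest Lyz2cre library was above the highest Klf6-deleted one, and the difference was 2.97-fold (log2 -1.57 ± 0.125 SE, adjusted p = 4.1e-09, limma). Clec7a, the receptor for fungal beta-glucan, stood at 5753, 6307 and 5735 against 2189.8, 2422 and 1903. It too was separated between the genotypes, by 2.74-fold (log2 -1.45 ± 0.0638, adjusted p = 9.6e-13, limma).

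Clec4d, which forms complexes with Clec4e, went the other way. It stood at 6512, 6792 and 6562 normalized counts in Lyz2cre and at 7483, 7599 and 7879 in Klf6-deleted cells. Every Klf6-deleted library was higher, although the difference was only 1.16-fold (log2 0.21 ± 0.0352, adjusted p = 5.5e-05, limma).

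For Clec4e and Clec5a no difference was called in untreated cells. Clec4e stood at 669, 659 and 628 in Lyz2cre and at 470.1, 492 and 706 in Klf6-deleted cells, so that replicate 3 of the Klf6-deleted cells was above all the Lyz2cre libraries and the other two were below them. Its log2 difference was -0.25 with a 95% interval of -0.48 to -0.02 (adjusted p = 0.056, limma), and without that library it was -0.44 (adjusted p = 1.7e-05, limma). Clec5a, which signals through Tyrobp, stood at 159, 95.6 and 99.5 in Lyz2cre and at 154, 148 and 152 in Klf6-deleted cells. Its first Lyz2cre library was above all 3 Klf6-deleted ones. The log2 difference was 0.39, with an interval of 0.04 to 0.75 (adjusted p = 0.055, limma), and without that library it was 0.63 (adjusted p = 0.0016, limma).

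The inhibitory receptors and their relatives were lower in untreated Klf6-deleted cells. Clec4a2 stood at 2587, 2574 and 2617 normalized counts in Lyz2cre and at 1059, 1129 and 1283 in Klf6-deleted cells, a separation of 2.25-fold (log2 -1.17 ± 0.0572, adjusted p = 4.7e-12, limma). Clec4a3 stood at 2781, 2960.0 and 2774 against 1499, 1461 and 1653 (1.85-fold, log2 -0.89 ± 0.0496, adjusted p = 3.1e-11, limma). Clec4a1 stood at 8700.0, 8447 and 8275 against 4906, 4709 and 5481 (1.69-fold, log2 -0.75 ± 0.0464, adjusted p = 1.1e-10, limma). In these 3 clustered genes the highest Klf6-deleted library was below the lowest Lyz2cre library. Clec12a, which recognises uric acid crystals, stood at 11064, 11721 and 11076 against 8918, 9000.0 and 8362. The groups were again separate, by 1.29-fold (log2 -0.37 ± 0.0377, adjusted p = 1.4e-07, limma).

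Of the 50-base windows of the Clec4a2 transcripts, 6.69% recur on the same strand in other annotated genes, Clec4a4 and Clec4b1 among them, so its count is less certain than those of the other 8 genes, where the share was at most 0.686%. The untreated Klf6-deleted cultures also had the higher stromal and monocyte marker sums and the lower macrophage marker sum given above. Of the 10 monocyte markers, 8 were called higher and 1, F13a1, lower in these cultures (limma). Fn1 stood at 1320 normalized counts in Lyz2cre against 10730 in Klf6-deleted cells, and F13a1 at 9923 against 2618. The monocyte sum thus did not reflect an even rise of its genes. Among the single macrophage markers, Csf1r, the receptor for the growth factor M-CSF, was lower (log2 difference -1.18), as was Adgre1 (-1.08), which codes for F4/80.

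The second comparison asks how the receptors differ between genotypes once the cells have met TNF. With TNF, 6 of the 9 receptors were lower in Klf6-deleted cells, 2 were higher and 1, Clec4a1, did not pass the test. Of the 11717 genes tested, 57.3% passed, 30.8% lower and 26.5% higher (limma, adjusted p below 0.05). The lower genes were Clec12a, Clec5a, Clec4e, Clec7a, Clec4a2 and Clec4a3, and the higher ones were Clec4n and Clec4d. The median log2 difference was -0.25 over the 9 genes and -0.01 over all genes tested, and the groups did not overlap for 8 of the 9 genes, against 63.2% of all genes tested.

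Of the 4 receptors that stood higher with TNF, 3 were lower in Klf6-deleted than in Lyz2cre cells. Clec4e stood at 97633, 101962 and 99043 normalized counts in Lyz2cre and at 65779, 61331 and 59852 in Klf6-deleted cells. No library of one genotype came near the other, and the difference was 1.6-fold (log2 -0.68 ± 0.0438, adjusted p = 1.3e-09, limma). Clec5a stood at 4028, 4093 and 4137 against 2178, 2182 and 2089. The 3 libraries of each genotype lay close together, 1.90-fold apart (log2 -0.93 ± 0.0443, adjusted p = 2.6e-11, limma). Clec12a stood at 15471, 15889 and 15881 against 7727, 7457 and 7180.4, the widest called decrease of the 9 with TNF, 2.11-fold (log2 -1.08 ± 0.0404, adjusted p = 1.1e-12, limma).

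The fourth, Clec4d, was again higher in Klf6-deleted cells. It stood at 15854, 16271 and 16207 normalized counts in Lyz2cre and at 20705, 20067 and 18689 in Klf6-deleted cells. The groups did not overlap, and the difference was 1.23-fold (log2 0.30 ± 0.0428, adjusted p = 1.8e-05, limma). Clec4n, which had been lower in untreated Klf6-deleted cells, was higher in them with TNF. It stood at 54.7, 85.4 and 66.5 in Lyz2cre and at 147, 174 and 123 in Klf6-deleted cells, all 3 above the highest Lyz2cre library. The difference was 2.14-fold (log2 1.10 ± 0.189, adjusted p = 0.00011, limma).

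Clec7a stayed lower in Klf6-deleted cells, at 1077, 1156 and 1072 against 1567, 1917 and 1604 normalized counts. The groups were separate, by 1.53-fold (log2 -0.62 ± 0.0714, adjusted p = 1.6e-06, limma). The 3 Clec4a genes had small log2 differences with TNF. Clec4a2 stood at 550.0, 591 and 546 in Lyz2cre and at 489, 469.8 and 458 in Klf6-deleted cells (log2 -0.25 ± 0.0750, adjusted p = 0.0095, limma). Clec4a3 stood at 550.0, 466 and 550.4 against 466, 453 and 407, where the groups just failed to touch (log2 -0.24 ± 0.0890, adjusted p = 0.032, limma). Clec4a1 stood at 3336, 3175 and 3412 against 3067, 3288 and 3106, and the groups overlapped (log2 -0.07, interval -0.17 to 0.03, adjusted p = 0.23, limma).

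The scaling matters for these small differences, because the deposited normalized counts summed to less in Klf6-deleted than in Lyz2cre libraries with TNF. Scaling to total reads shifted the median log2 difference over all genes upward by 0.33 with TNF and by 0.13 without it. Of the genes called with TNF, 80.4% were then higher in Klf6-deleted cells, against 46.2% of those called as deposited. Of the genes called without TNF the shares were 68.1% and 48.5%. Clec4a1, Clec4a2 and Clec4a3 then had log2 differences of 0.26 (adjusted p = 9e-05), 0.08 (adjusted p = 0.38) and 0.09 (adjusted p = 0.35) with TNF (limma), so their direction with TNF rests on the scaling. Relative to the median of all genes under the same scaling they were at -0.06, -0.24 and -0.23. The call for Clec4a3 with TNF was also lost with TMM scaling (adjusted p = 0.061, limma), with edgeR (adjusted p = 0.057) and with DESeq2 (adjusted p = 0.067). It was lost as well without Klf6-deleted replicate 2 (adjusted p = 0.052) or 3 (0.13) and without Lyz2cre replicate 1 (0.12) or 3 (0.12), by limma.

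**Figure D3:**
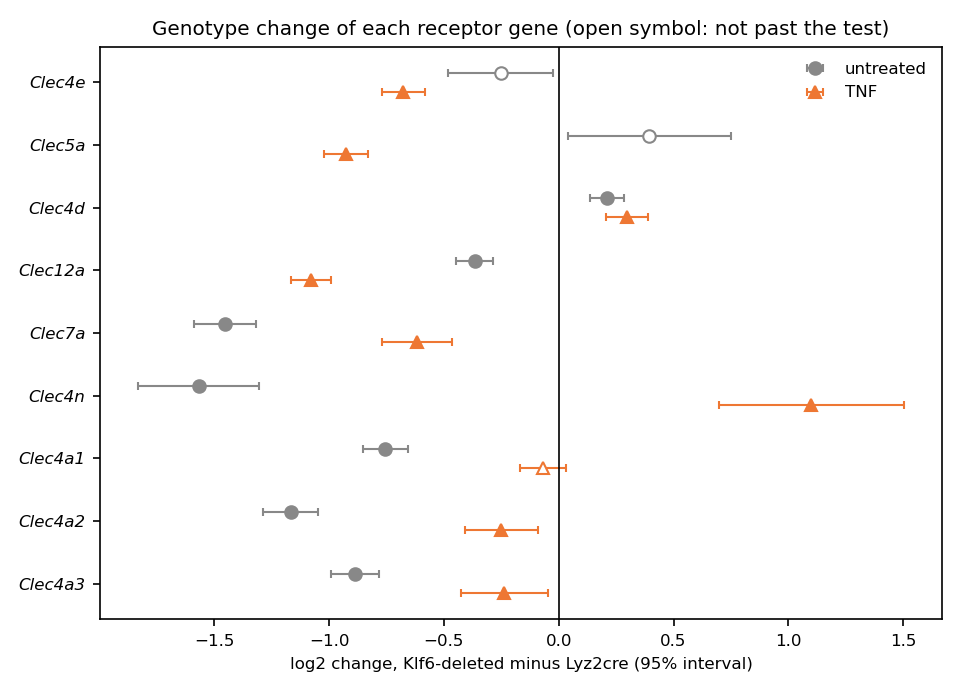
Log2 difference between Klf6-deleted and Lyz2cre cells for each of the 9 genes without and with TNF, as points with the 95% interval from limma; values above 0 are higher in Klf6-deleted cells. Clec4n lies at -1.57 without and at 1.10 with TNF, and Clec5a at 0.39 and -0.93.

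The third comparison asks whether the genotype difference itself differed between TNF-treated and untreated cells. It did for 8 of the 9 receptors, 5 toward higher and 3 toward lower values in Klf6-deleted cells with TNF. Of the 13062 genes tested, 48.9% passed, 24.1% and 24.9% in those directions (limma, adjusted p below 0.05). Clec4n turned direction, and its difference of differences was 2.67 ± 0.246 on the log2 scale, or 6.36-fold (adjusted p = 2.2e-08, limma). Clec4a2 (0.92 ± 0.0906), Clec7a (0.84 ± 0.11), Clec4a1 (0.69 ± 0.0698) and Clec4a3 (0.65 ± 0.101) had smaller genotype differences with TNF than without it, with adjusted p at or below 2.3e-05 (limma). Clec5a (-1.32 ± 0.172, adjusted p = 2.6e-06), Clec12a (-0.71 ± 0.055, adjusted p = 1.6e-09) and Clec4e (-0.42 ± 0.133, adjusted p = 0.013) had values below 0, with Klf6-deleted cells lower relative to Lyz2cre after TNF than before it (limma). Clec4d did not pass (0.09, interval -0.03 to 0.20, adjusted p = 0.19, limma). Without untreated Klf6-deleted replicate 3 the value for Clec4e was -0.24 (adjusted p = 0.0028, limma). The Clec4e call was lost when libraries were scaled to total reads (-0.23, adjusted p = 0.15, limma), and Clec4d then passed (0.28, adjusted p = 0.00022, limma). Clec4d also passed without TNF-treated Klf6-deleted replicate 3 (0.13, adjusted p = 0.04, limma).

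Clec4e and Clec4d, whose products act together at the cell surface, lie next to each other and were compared within each library, so that no scaling between libraries entered. The ratio of Clec4e to Clec4d reads was 0.103, 0.0970 and 0.0957 in untreated Lyz2cre and 0.0628, 0.0648 and 0.0896 in untreated Klf6-deleted libraries. With TNF it was 6.16, 6.27 and 6.11 in Lyz2cre and 3.18, 3.06 and 3.20 in Klf6-deleted libraries. The ratio was lower in every Klf6-deleted library than in any Lyz2cre library of the same condition, by 0.46 on the log2 scale without TNF and by 0.97 with it. With 3 libraries against 3 the exact two-sided permutation test gave p = 0.1 in each condition, the smallest it can give. The ratio of Clec4n to Clec4a2, another gene of the same cluster, was lower in Klf6-deleted cells without TNF and higher in them with TNF. It was 0.237 ± 0.0164 in untreated Lyz2cre, 0.180 ± 0.0254 in untreated Klf6-deleted, 0.122 ± 0.0226 in TNF-treated Lyz2cre and 0.313 ± 0.0512 in TNF-treated Klf6-deleted libraries (SD, n = 3; exact permutation p = 0.1 in each condition).

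**Figure D4:**
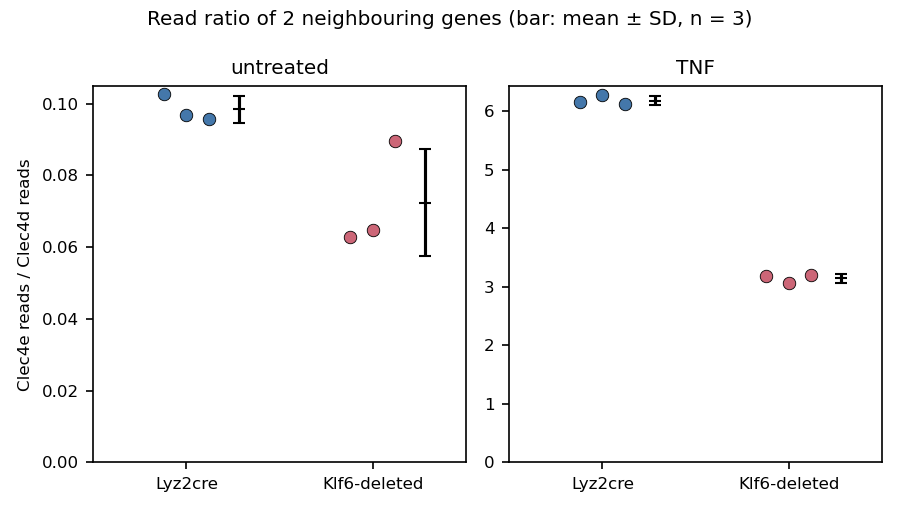
Ratio of Clec4e to Clec4d reads in each of the 12 libraries, untreated and with TNF in separate panels whose linear axes start at 0, with points for libraries and a bar for the group mean ± SD (n = 3). The ratio is near 0.0984 in untreated and near 6.18 in TNF-treated Lyz2cre libraries, and lower in the Klf6-deleted libraries of both conditions.

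The order of the 9 genes by level was set from CPM per kb of exon, which allows levels to be compared between genes. In untreated Lyz2cre cells Clec4a1 led at 262 CPM per kb, followed by Clec4d at 199. Clec7a (108), Clec4a3 (103) and Clec12a (98.2) each overlapped the next of them between libraries. Clec4a2 (42.6), Clec4n (20.8), Clec4e (6.32) and Clec5a (1.48) closed the order. In untreated Klf6-deleted cells Clec4d led at 253, ahead of Clec4a1 at 170.4, and Clec4n (7.79) and Clec4e (5.91) overlapped.

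With TNF the order was headed by Clec4e and Clec4d in both genotypes. Clec4e stood at 972 and Clec4d at 488 CPM per kb in Lyz2cre cells, whereas in Klf6-deleted cells they stood at 763 and 754 and overlapped. Clec5a, the last of the 9 without TNF, was the fifth with it, at 51.6 and 34.0 CPM per kb. Clec4n was the last, at 2.36 in Lyz2cre and 6.33 in Klf6-deleted cells. The length used affects these levels. With the longest coding transcript, 2.518 kb in place of 4.965 kb of exon, Clec4e stood at 1505 against 911 for Clec4d in TNF-treated Klf6-deleted cells and kept its place. Clec12a, with 2.502 kb in place of 5.528 kb, moved from the fifth to the third place in untreated Lyz2cre cells (217 CPM per kb), and from the third to the second in untreated Klf6-deleted cells (185).

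The other genes of the signalling pathway were taken from a list of 29 adaptors, kinases, phosphatases and effectors, all of which were tested. Without TNF 17 were lower and 7 higher in Klf6-deleted cells, and with TNF 18 were lower and 5 higher (limma), with median log2 differences of -0.28 and -0.22. Over all genes tested, 29.3% were lower and 27.6% higher without TNF, and 30.8% and 26.5% with it. Scaling to total reads moved the counts of the list to 15 lower and 10 higher without TNF and to 10 lower and 14 higher with it. Fcer1g, the adaptor of Clec4e, Clec4d and Clec4n, was lower in both conditions. Its level was 15729 ± 646 against 10505 ± 64.5 normalized counts without TNF (log2 -0.58, adjusted p = 9.8e-11, limma) and 12105 ± 568 against 6488 ± 126 with it (log2 -0.90, adjusted p = 2.6e-11, limma). Syk, the kinase on which the activating receptors converge, was lower without TNF (11881 ± 204 against 7468 ± 241, log2 -0.67, adjusted p = 1.1e-11, limma). With TNF it was lower as deposited (log2 -0.37, adjusted p = 6.6e-07), but not when scaled to total reads (log2 -0.04, adjusted p = 0.33, limma).

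Src, of the kinase family that phosphorylates these motifs, was higher in Klf6-deleted cells without TNF (147 ± 12.7 against 268 ± 3.77, log2 0.86, adjusted p = 1.8e-06, limma). With TNF it was lower in them (4839.5 ± 309 against 1142 ± 36.5, log2 -2.08, adjusted p = 1.2e-14, limma). Nfatc2, a calcium-dependent transcription factor, went the opposite way, lower without TNF (log2 -1.20, adjusted p = 1.9e-12) and higher with it (log2 0.68, adjusted p = 0.0027, limma).

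Among downstream adaptors, the B cell linker gene Blnk was lower by a log2 difference of -0.84 without TNF and of -0.50 with it (adjusted p = 8.3e-12 and 1.7e-07, limma). With TNF, Prkcd, the kinase between Syk and Card9, stood at 20376 ± 997 against 11110.1 ± 129 (log2 -0.87, adjusted p = 3e-11, limma). Lcp2, which codes for the adaptor SLP-76, stood at 3065 ± 176 against 1883 ± 82.6 (log2 -0.70, adjusted p = 1.1e-08, limma). The calcium channel gene Itpr1 was lower with TNF (log2 -1.23, adjusted p = 4.3e-07, limma) but higher without it (log2 0.46, adjusted p = 3.6e-06, limma).

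A further 3 genes of the list were named after their values were seen, because the receptors depend on them. Tyrobp, the adaptor of Clec5a, was lower without TNF (log2 -0.31, adjusted p = 3.8e-07) and with it (log2 -0.36, adjusted p = 5.6e-05, limma). The second of these calls was lost on scaling to total reads (log2 -0.03, adjusted p = 0.6, limma). Card9, which links Syk to NF-kappaB, was lower without TNF (log2 -0.28, adjusted p = 0.00029) and higher with it (log2 0.21, adjusted p = 0.015, limma). The call with TNF was lost without replicate 3 of either genotype (adjusted p = 0.051 and 0.05, limma). Ptpn6, the phosphatase recruited by the inhibitory receptors, was lower without TNF (log2 -0.43, adjusted p = 3.9e-09, limma). With TNF it was lower as deposited (log2 -0.22, adjusted p = 0.00029) and higher when scaled to total reads (log2 0.11, adjusted p = 0.038, limma).

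Of 45 other genes with a C-type lectin-like domain, 20 passed the filter without TNF, of which 8 were higher and 7 lower in Klf6-deleted cells. With TNF 14 passed, of which 7 were higher and 6 lower (limma). The shares over all genes tested were 27.6% higher and 29.3% lower without TNF, and 26.5% and 30.8% with it. Mrc1, the mannose receptor, had the largest decrease without TNF, from 27307 ± 253 to 8241 ± 1140.0 normalized counts (log2 -1.74, adjusted p = 6.2e-14, limma). With TNF, where its level was 721 ± 58.0 against 955 ± 48.6, it was higher in Klf6-deleted cells (log2 0.41, adjusted p = 0.00015, limma). Clec10a, a galactose-type lectin receptor, followed the same course, lower without TNF (2960.2 ± 106 against 1293 ± 118, log2 -1.20, adjusted p = 2.8e-12, limma) and higher with it (23.8 ± 5.30 against 84.5 ± 9.94, log2 1.80, adjusted p = 7.1e-06, limma). Like Clec4n, both thus changed direction, and the difference of differences passed for Mrc1 (2.14, adjusted p = 9.3e-13) and Clec10a (3.00, adjusted p = 3.2e-11, limma). In TNF-treated Lyz2cre cells, however, Clec10a was near the floor, with 20 to 26 reads per library (mean 1.15 CPM).

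Mrc2, of the mannose receptor family, a collagen-binding receptor that fibroblasts also express, was higher in Klf6-deleted cells without TNF (123 ± 3.25 against 919 ± 81.6, log2 2.89, adjusted p = 6.1e-15, limma) and with it (15.3 ± 11.2 against 61.6 ± 8.03, log2 2.22, adjusted p = 0.00043, limma). With TNF the Lyz2cre level of Mrc2 was near the floor, and Mrc2 passed the filter through the Klf6-deleted libraries. With 1 library left out the value with TNF ranged from 1.59 to 2.75. Ly75 was higher in both conditions too (log2 2.14 and 1.54, adjusted p = 5.7e-11 and 2.3e-09, limma), and Pla2r1 without TNF (log2 2.05, adjusted p = 0.00016, limma). Without TNF, Pla2r1 stood at only 16.5 normalized counts in Lyz2cre against 62.0 in Klf6-deleted cells. Its log2 value ranged from 1.55 to 2.53 with 1 library left out. With TNF Pla2r1 was below the filter, at 28.3 ± 8.10 against 8.83 ± 4.22 normalized counts. Its difference of differences was -3.67 (adjusted p = 4.6e-05, limma), a value that rests on these levels near the floor. Without TNF, Asgr2 was lower (log2 -1.66, adjusted p = 0.001, limma), but near the floor. It had 19 to 29 reads per library in Lyz2cre (mean 1.30 CPM) and 7 to 10 in Klf6-deleted cells (mean 0.412 CPM). With TNF, Thbd stood at 10.2 ± 1.73 against 114 ± 4.66 (log2 3.37, adjusted p = 7.8e-09, limma). Its Lyz2cre level was near the floor, and it passed the filter through the Klf6-deleted libraries, so the size of this difference is uncertain. Cd69, an early activation antigen, stood at 1122 ± 109 against 213 ± 12.3 (log2 -2.39, adjusted p = 8.5e-13, limma), and Clec2i was higher (log2 1.62, adjusted p = 3.5e-07, limma).

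The chromosome 6 clusters hold both receptors and other genes. In the 9-gene cluster around Clec4n, receptors included, 1 gene was higher, 5 were lower and 3 did not pass without TNF. With TNF 6 genes passed the filter, all of them receptors described above, of which 2 were higher and 3 lower. Over all genes tested, 27.6% were higher and 29.3% lower without TNF, and 26.5% and 30.8% with it. Among the neighbours, Clec4a4 (log2 -0.56, adjusted p = 0.19) and Clec4b2 (0.37, adjusted p = 0.45) did not pass without TNF (limma). No neighbour in this cluster was tested with TNF. Clec4b1 was lower without TNF (169 ± 18.6 against 97.4 ± 19.3, log2 -0.80, adjusted p = 0.00027, limma) and below the filter with it. In the cluster around Clec7a, Olr1, the scavenger receptor for oxidised low-density lipoprotein, stood at 1631 ± 123 in Lyz2cre and 923 ± 49.3 in Klf6-deleted cells with TNF (log2 -0.82, adjusted p = 1.7e-08, limma). Gabarapl1, an autophagy gene in the same region, was lower without TNF (log2 -0.38, adjusted p = 9.4e-07) and higher with it (log2 0.87, adjusted p = 1.6e-08, limma).

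For the 3 receptors with the widest range over the group levels, the genes most alike over the 12 libraries were sought among 8350 genes with at least 10 CPM on average, by Pearson r of log2(CPM + 1). The 12 libraries form 4 groups, so r describes mainly the group levels. Clec4e was most like Sod2, which codes for mitochondrial superoxide dismutase (r = 0.9997), Cybb, a subunit of the NADPH oxidase (0.999), and Gpr132 (0.999). Clec5a was most like Gpd2 (0.998), Tnf (0.997) and Clcn7 (0.997). Clec4n was most like Guk1 (0.985), Csad (0.983) and Idh1 (0.981), a looser likeness than that of the other two. Sod2 stood at 77.4 CPM in untreated Lyz2cre, 70.8 in untreated Klf6-deleted, 1277 in TNF-treated Lyz2cre and 1197 in TNF-treated Klf6-deleted cells, the same order of groups as Clec4e.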

How the data were processed

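Expression was measured by RNA sequencing of 12 libraries. RNA was depleted of ribosomal RNA and made into stranded libraries from 150 ng, per the labels' protocols. Cufflinks and the builds GRCm39 and mm10 are named, per the submitters' processing notes, without version or role. The aligner, counting tool, annotation and use of strand were not given in the sources used here. The authors deposited normalized signal in separate tables, 1 per condition, keyed by Ensembl gene per the file headers. The unit was read from the values: every deposited signal value was a whole number of reads divided by 1 factor per library (100% whole within 0.001 reads), and these factors matched size factors of the median-of-ratios kind that were computed anew from each table. The plan set the filter in CPM and allowed for another unit, and the filter was applied as CPM of the recovered reads. All 12 value columns were used.

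Within a table, the genotypes were compared on log2(value + 1) by limma, with its trend option, for genes that reached 1 CPM in 3 or more libraries. The pseudocount makes fold changes of low genes appear smaller. The Benjamini-Hochberg adjustment was applied over all genes tested, and calls were made below 0.05. The difference between conditions was a contrast of the within-table differences over all 12 libraries. The test was checked on simulated data with 200 changed genes: a 1.5-fold change was recovered for 94% of them untreated (11637 genes), 94% with TNF (10772 genes) and 79% for the difference (11915 genes). False calls numbered 6, 13 and 9 in that order. The simulation gave every gene the same dispersion, used a stricter filter and changed few genes, all upward. It therefore does not show how well the test recovers changes in the present data, where many genes differ.

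The 9 receptors and the gene lists were chosen with earlier results of these data known. Named genes were the receptors, Klf6, up to 6 genes of each list with the largest called change per comparison, and the 3 genes most alike to each of the 3 receptors of widest range. The results of a few genes that this rule names are left out here. Alternatives were edgeR quasi-likelihood, DESeq2, other filters, another pseudocount and threshold, TMM or total reads as scaling, a block for the replicate number and each library left out. Software was Python 3.11.15 with pandas 2.3.3, numpy 2.4.6, matplotlib 3.10.9 and scipy 1.17.1, and R 4.3.3 with DESeq2 1.42.0, edgeR 4.0.16 and limma 3.58.1.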

Additional observations from a re-analysis of the deposited data

Results flagged for a closer look

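The genotype difference with TNF differed from that without TNF, by limma's test of the difference itself over the 12 libraries, for 8 of the 9 receptors and for Klf6. The same test passed for 48.9% of the 13062 genes tested. On the log2 scale the difference of differences was 2.67 for Clec4n, 0.92 for Clec4a2, 0.84 for Clec7a, 0.69 for Clec4a1 and 0.65 for Clec4a3. It was -1.32 for Clec5a, -0.71 for Clec12a and -0.42 for Clec4e, and -0.33 for Klf6. Clec4n was called in both conditions in opposite directions.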

How the results depend on the processing

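Counts of called genes stayed within 1.5 times the reported count in all 90 alternatives and in all 72 counts with 1 library left out, where receptors called ranged from 7 to 8 without TNF, 7 to 8 with TNF and 8 to 9 for the difference. Among the single genes named in the text and recomputed, directions reversed on scaling to total reads with TNF, where Clec4a1 was at 0.26, Clec4a2 at 0.078, Clec4a3 at 0.091 and Ptpn6 at 0.11 on the log2 scale; the same scaling shifted the median of all genes by 0.33. Of the genes called for the difference between conditions, 49.2% were higher as deposited and 69.2% under that scaling. Replicate numbers recur between groups, but same-numbered libraries had correlations of only 0.152, -0.0378 and 0.158 untreated and -0.0209, -0.0123 and -0.0295 with TNF, and were not treated as paired. With the replicate block 9 receptors were called without TNF, Clec4e (adjusted p = 0.032) and Clec5a (0.036) in addition, 8 with TNF and 8 for the difference, and 7284, 6473 and 6296 genes (limma). Clec4e also passed without TNF with a pseudocount of 5 (adjusted p = 0.049) and a filter at 5 CPM (0.05), and Clec5a with scaling to total reads (0.014) or TMM (0.047), by limma. Near-threshold calls for Clec4e, Clec5a and Clec4a3 thus depend on the setting. Clec5a in untreated cells, at 5.68 CPM, and Clec4n with TNF, at 3.35 CPM, were the lowest levels and had the widest standard errors.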
